A study of Mus musculus with 2 samples.

Results

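The proteasome subunit genes were described in long-read RNA sequencing of mouse left cerebral cortex, in which a single read can cover a transcript from its start to its tail. Members were the protein-coding genes of the deposited annotation whose symbol is Psma, Psmb, Psmc, Psmd or Psme followed by a number. There were 43 such genes among 22028 protein-coding genes of GENCODE M21, spread over 16 chromosomes, and 42 of them had reads in both libraries. The study held 1 group of 2 libraries, labelled biological replicates 1 and 2. Total RNA was taken from adult B6NCrl animals at 6 months of age in both cases, with no treatment or allele named. The labels gave both tissue samples 1 donor record and did not say whether separate animals were used, so the spread between replicates may be technical. One field called the animal a C57BL/6 male and another gave the sex as not collected.

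The proteasome is the barrel-shaped protease that degrades ubiquitin-tagged proteins in the cytosol and nucleus. Its 20S core is built of alpha rings, which form the gate, around beta rings, which hold the protease sites. The 19S cap adds a ring of ATPases that unfold the substrate and a lid and base of non-ATPase subunits that bind and strip ubiquitin. In neurons the proteasome is known for its part in turnover of synaptic proteins, and in immune and interferon-treated cells inducible beta subunits take the place of the constitutive catalytic ones.

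Several sequences carry the transcript results given further on. They were read from the GENCODE M21 transcripts, with introns removed, and all positions are GRCm38 (mm10). Psmd4 encodes the ubiquitin receptor Rpn10 of the 19S cap, and its annotated coding transcripts Psmd4-201 and Psmd4-202 differed at the end of an exon by 9 bases, shown in capitals. The stretch spans an intron on the minus strand of chromosome 3, chr3:95033738-95033944.
Psmd4-201: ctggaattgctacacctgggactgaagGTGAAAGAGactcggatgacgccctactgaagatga
Psmd4-202: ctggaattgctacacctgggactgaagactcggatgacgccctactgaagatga
The lower line is the same stretch without the 9 bases, a multiple of 3. Psmd10 encodes gankyrin, a chaperone of 19S assembly, and Psmd10-202 lacked the 79 bases in capitals here, on the minus strand of chromosome X, chrX:140949290-140952245.
Psmd10-201: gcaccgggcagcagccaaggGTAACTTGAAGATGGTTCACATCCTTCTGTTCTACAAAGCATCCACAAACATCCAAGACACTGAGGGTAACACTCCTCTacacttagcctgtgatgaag
Psma3 encodes an alpha-ring subunit, and its transcript Psma3-201, annotated as a target of nonsense-mediated decay, lacked the 5 bases in capitals at the start of an exon, on the plus strand of chromosome 12, chr12:70978790-70983349.
Psma3-202: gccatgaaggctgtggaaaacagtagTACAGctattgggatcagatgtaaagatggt

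The 42 detected genes summed to 7207 CPM in replicate 1 and 7863 CPM in replicate 2, a mean of 7535 ± 464 CPM (SD, n = 2). CPM is the count of reads scaled to a library total of 1000000, and 1 read was worth 0.765 CPM in replicate 1 and 0.767 in replicate 2. These were 9415 of 1306424 reads in replicate 1, or 0.721% (95% Clopper-Pearson interval 0.706% to 0.735%), and 10254 of 1304133 reads in replicate 2, or 0.786% (0.771% to 0.802%). Intervals cover counting error only. Most of the higher sum in replicate 2 was 1 model, with 644 reads assigned to Psmc1 that lay outside that gene. With models outside their gene left out of both the sum and the library total, the subunits held 7207 CPM in replicate 1 and 7372 CPM in replicate 2. In bulk tissue, fewer cells of a type and less RNA per cell cannot be told apart.

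The subunit genes were expressed well above a typical gene of this tissue. Their median level was 174 CPM, against 13.4 CPM over the 14974 protein-coding genes with reads, and 93.5% of those genes lay below the median of the subunits. Of the 42 detected subunit genes 39 were above the median of all. Genes below it were Psma8, Psmb9 and Psme4. A long read counts 1 cDNA molecule whatever its length, and CPM per kb of the leading known transcript is given beside each comparison of level between genes. Across the 42 genes the order by CPM and by CPM per kb had a Spearman correlation of 0.92, both being made from the same reads.

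**Figure D1:**
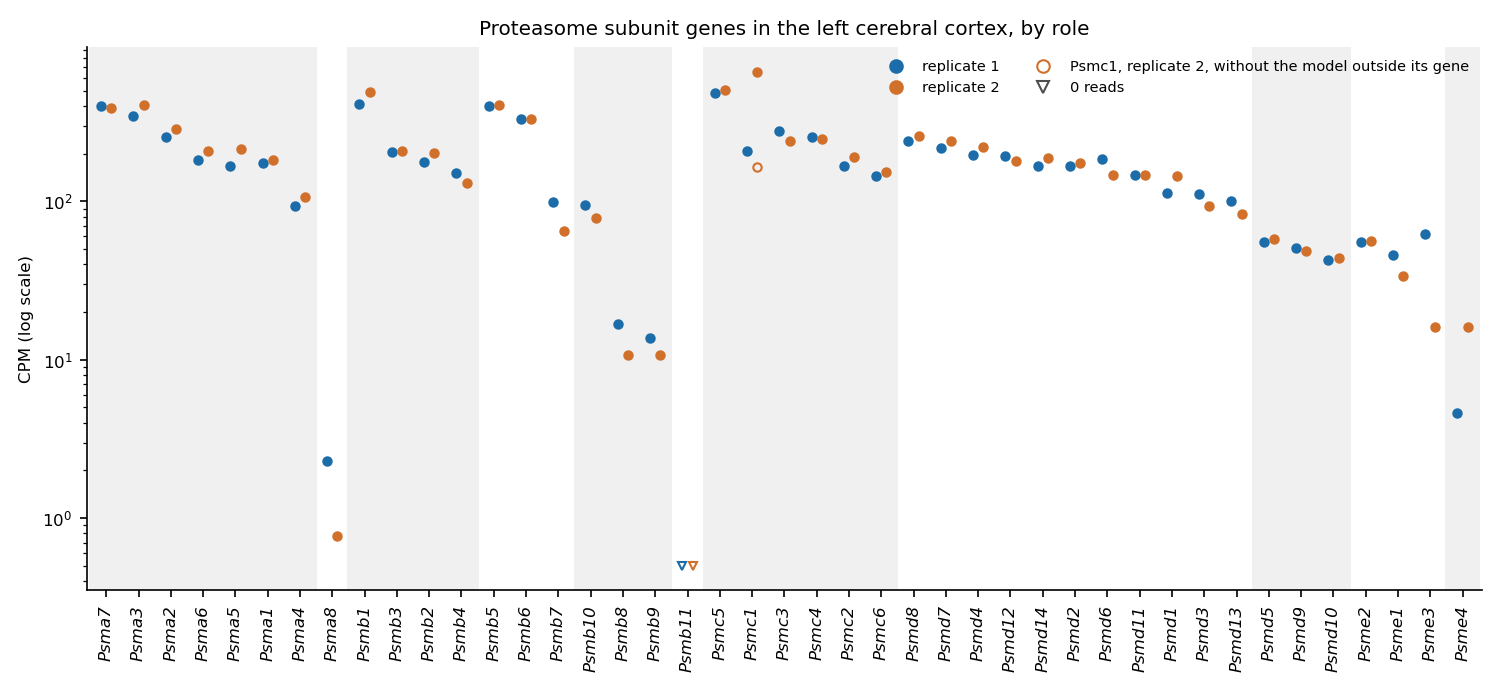
Level of each of the 43 subunit genes in replicate 1 (blue) and replicate 2 (orange), in CPM on a log scale, with genes ordered by level within shaded blocks of shared role. Triangles mark Psmb11, which had 0 reads. The open circle is Psmc1 in replicate 2 without the model outside its gene, at 164 CPM.

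The 7 alpha-ring genes together gave 1617 CPM in replicate 1 and 1793 CPM in replicate 2. Psma7, an alpha-ring subunit, was the highest of them by mean CPM and in replicate 1, with 402 CPM in replicate 1 and 388 CPM in replicate 2. Psma3 had 344 CPM in replicate 1 and 406 in replicate 2, where it was above Psma7, and Psma2 had 253 CPM in replicate 1 and 288 CPM in replicate 2. Psma4 was the lowest, with 93.4 CPM in replicate 1 and 106 CPM in replicate 2. The range from Psma4 to Psma7 was 3.97-fold in mean CPM, although the encoded proteins occur in equal numbers in the ring, and both libraries put Psma7 and Psma3 at the top and Psma4 at the bottom. Per kb, Psma7 was highest at 432 CPM per kb and Psma4 lowest at 85.5 CPM per kb, while Psma3 dropped to 132 and Psma2 to 93.0 CPM per kb, since their leading transcripts are 2846 and 2911 bases long. Psma8, the alpha subunit of the testis proteasome, had 3 reads in replicate 1 and 1 read in replicate 2.

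The 4 non-catalytic beta genes gave 943 CPM in replicate 1 and 1031 CPM in replicate 2. Psmb1 led with 538 reads (412 CPM) in replicate 1 and 640 reads (491 CPM) in replicate 2. Psmb3 had 204 CPM in replicate 1 and 209 in replicate 2, and Psmb2 had 177 CPM in replicate 1 and 202 CPM in replicate 2. Psmb4 was lowest, with 151 CPM in replicate 1 and 130 CPM in replicate 2. Per kb, Psmb3 (270), Psmb1 (257) and Psmb2 (220 CPM per kb) changed order and lay close together, and Psmb4 remained lowest at 119 CPM per kb.

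Of the constitutive catalytic genes, Psmb5 and Psmb6 were abundant and Psmb7 was not. Psmb5, which carries the chymotrypsin-like site, had 518 reads (397 CPM) in replicate 1 and 526 reads (403 CPM) in replicate 2. Psmb6, which carries the caspase-like site, had 435 reads in replicate 1 and 434 reads in replicate 2, or 333 CPM in each. Psmb7, which carries the trypsin-like site, had 130 reads (99.5 CPM) in replicate 1 and 85 reads (65.2 CPM) in replicate 2. The order was the same per kb, at 445, 417 and 71.0 CPM per kb for Psmb5, Psmb6 and Psmb7.

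Of the inducible catalytic genes, Psmb10 was well above Psmb8 and Psmb9. Psmb8 had 22 reads (16.8 CPM) in replicate 1 and 14 reads (10.7 CPM) in replicate 2. Psmb9 had 18 reads (13.8 CPM) in replicate 1 and 14 reads (10.7 CPM) in replicate 2. Psmb10 had 123 reads (94.2 CPM) in replicate 1 and 102 reads (78.2 CPM) in replicate 2. Per kb, Psmb10 stood at 65.7 CPM per kb, against 9.07 for Psmb9 and 8.47 for Psmb8. Psmb8 and Psmb9 lay within counting error of each other in each library.

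Set against the constitutive subunit it replaces, each inducible subunit could be read within a library without any scaling. Psmb8 made up 4.07% of the reads of Psmb8 and Psmb5 in replicate 1 (interval 2.57% to 6.10%) and 2.59% in replicate 2 (1.42% to 4.31%). Psmb9 made up 3.97% of the reads of Psmb9 and Psmb6 in replicate 1 (2.37% to 6.21%) and 3.12% in replicate 2 (1.72% to 5.19%). Psmb10 made up 48.6% of the reads of Psmb10 and Psmb7 in replicate 1 (42.3% to 55.0%) and 54.5% in replicate 2 (47.1% to 61.8%). The Psmb10 interval lay above those of Psmb8 and Psmb9 in both libraries. Over the 3 pairs the inducible genes held 13.1% of the catalytic reads in replicate 1 and 11.1% in replicate 2, a mean of 12.1% ± 1.43 (SD, n = 2), and 9.41% when only reads on complete known transcripts were counted. Psmb11, the catalytic subunit of the thymus proteasome, had 0 reads in both libraries, which allows up to 2.30 CPM in each.

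**Figure D2:**
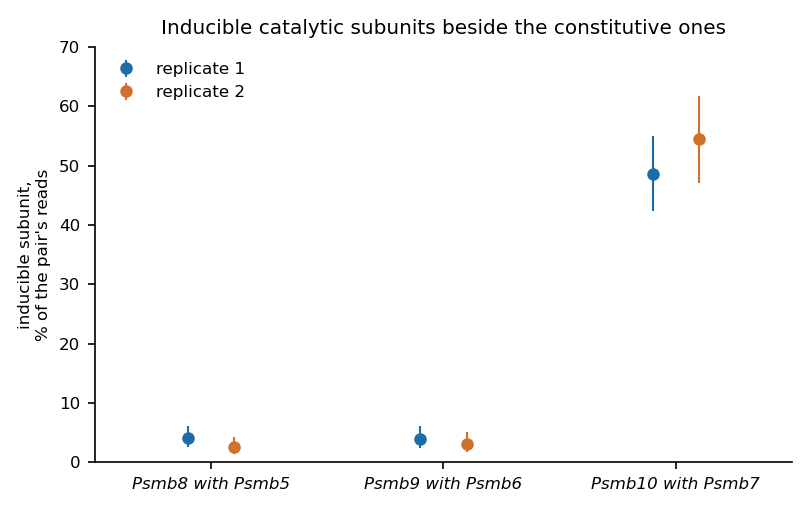
Share of each inducible catalytic subunit in the reads of that subunit and the constitutive subunit it replaces, in percent, in replicate 1 (blue) and replicate 2 (orange), with 95% Clopper-Pearson intervals. Psmb10 lies near 50%, whereas Psmb8 and Psmb9 lie under 5%.

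Genes of interferon response and antigen processing were present beside these subunits. Of the 9 genes listed, B2m, the light chain of class I molecules, had 227 reads in replicate 1 and 328 reads in replicate 2, H2-D1 had 171 reads in replicate 1 and 134 reads in replicate 2, and H2-K1 had 51 reads in replicate 1 and 34 reads in replicate 2. Tap1, the peptide transporter gene next to Psmb9, had 6 reads in each. All 9 microglia markers had reads, with a sum of 1070 CPM in replicate 1 and 1144 CPM in replicate 2. Of the 5 T and NK lymphocyte markers, Cd3d and Cd3e had a single read each over both libraries and Cd2, Cd8a and Nkg7 had 0. The part of any cell type in the level of Psmb8, Psmb9 and Psmb10 was not tested.

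The 6 ATPase genes of the 19S base gave 1535 CPM in replicate 1 and 1994 CPM in replicate 2 as deposited, and 1501 CPM in replicate 2 without the model that lay outside its gene. Psmc5 was the highest, with 483 CPM in replicate 1 and 504 CPM in replicate 2. Psmc1 had 209 CPM in replicate 1 and 658 CPM in replicate 2 as deposited, and 164 CPM in replicate 2 within its own gene. Psmc3 had 276 CPM in replicate 1 and 242 CPM in replicate 2. Psmc6 was the lowest, with 144 CPM in replicate 1 and 153 CPM in replicate 2. Per kb, Psmc5 led at 375 CPM per kb and Psmc6 was lowest at 66.5 CPM per kb, with Psmc1 at 117 CPM per kb within its own gene.

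The 11 non-ATPase genes lay within a 2.71-fold range of mean CPM and summed to 1839 CPM in replicate 1 and 1871 CPM in replicate 2. Psmd8 had 241 CPM in replicate 1 and 258 CPM in replicate 2. Psmd7 had 217 CPM in replicate 1 and 241 in replicate 2, and Psmd4 had 197 CPM in replicate 1 and 219 CPM in replicate 2. Psmd13 was lowest, with 100 CPM in replicate 1 and 83.6 CPM in replicate 2. Per kb, Psmd8 was still highest at 179 CPM per kb, and the long transcript of Psmd1, at 41.2 CPM per kb, took the lowest place from Psmd13 at 46.2. Psmd14, the deubiquitinase of the lid, had 166 CPM in replicate 1 and 189 CPM in replicate 2.

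The 3 assembly chaperones of the 19S cap, which are not part of the finished particle, were lower than every one of its subunits among the members. Psmd5 had 55.1 CPM in replicate 1 and 57.5 CPM in replicate 2, Psmd9 had 50.5 CPM in replicate 1 and 48.3 in replicate 2, and Psmd10 had 42.9 CPM in replicate 1 and 43.7 CPM in replicate 2. The highest of the chaperones and the lowest of the 19S subunits, Psmd13, did not overlap between libraries. Per kb the chaperones ranged from 12.8 for Psmd5 to 30.3 for Psmd10, all under the 41.2 CPM per kb of Psmd1.

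The activators that open the core in place of the 19S cap were low. Psme1 and Psme2, the subunits of the interferon-inducible PA28 ring, had 60 and 72 reads in replicate 1 and 44 and 73 reads in replicate 2. Psme3, which forms the nuclear PA28 ring, had 81 reads (62.0 CPM) in replicate 1 and 21 reads (16.1 CPM) in replicate 2. Psme4, the PA200 activator, had 6 reads (4.59 CPM) in replicate 1 and 21 reads (16.1 CPM) in replicate 2, and its annotated transcript of 6491 bases was the longest of all members. Per kb, Psme2 stood at 57.7, Psme1 at 35.8, Psme3 at 14.7 and Psme4 at 1.59 CPM per kb.

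The libraries were compared gene by gene against counting noise with an exact two-sided binomial test, adjusted by Benjamini and Hochberg's method over all 11838 genes with at least 10 reads. Calls needed an adjusted p below 0.05 together with a ratio of at least 2-fold. Of the 41 subunit genes tested 3 were called (7.32%), beside 7.05% of all genes tested, a share near the background. Psme3 was called higher in replicate 1, a direction taken by 5.44% of all genes tested, and Psmc1 and Psme4 were called lower, as 1.61% of all were. Without the limit on the ratio 5 subunit genes passed, beside 12.8% of all genes tested, and 9 of the 41 (22.0%) had an unadjusted p under 0.05, beside 22.8% of all genes tested. The median log2 ratio of replicate 1 over replicate 2 was -0.04 over the subunits and -0.00 over all genes tested. Among genes with at least 100 reads, 35 of 38 subunits lay within 1.5-fold between the libraries (92.1%), beside 82.6% of 4224 genes of any kind. Psmc1, counted as deposited, was outside that range. The subunits and the other genes were not matched for read depth, and the part of depth in these shares was not tested. The binomial test compares 2 libraries and says nothing of a condition.

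**Figure D3:**
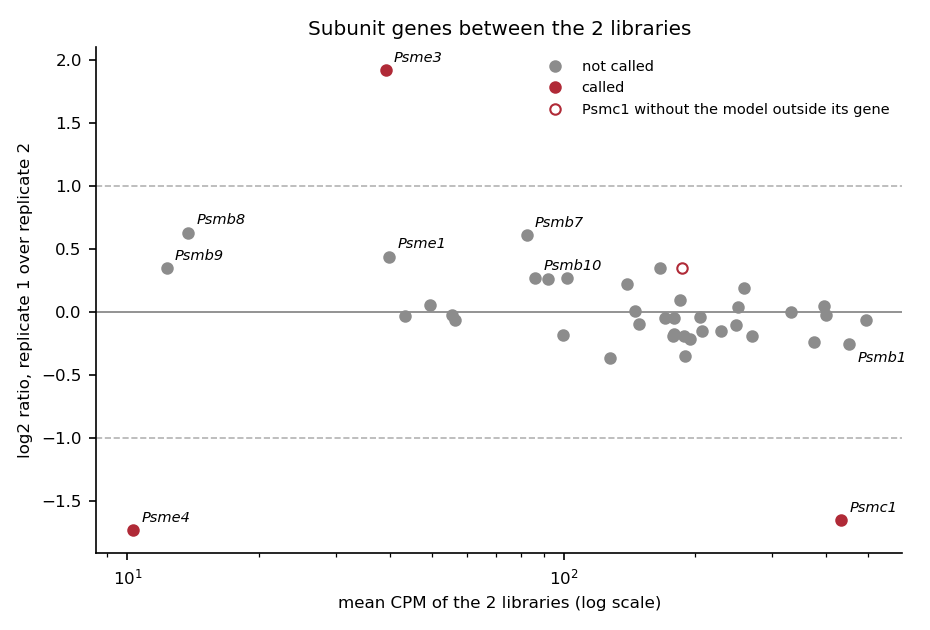
Log2 ratio of replicate 1 over replicate 2 against mean CPM on a log scale, for the 41 subunit genes tested. Red points are Psme3, Psme4 and Psmc1, past the 2-fold lines (dashed) with an adjusted p under 0.05, and the open circle is Psmc1 without the model outside its gene, at a log2 ratio of 0.35.

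Psmc1, an ATPase of the 19S base, had 273 reads in replicate 1 and 858 reads in replicate 2, a log2 ratio of -1.65 (adjusted p = 1.54e-68, binomial test). The annotated Psmc1 gene occupies chr12:100110154-100123405 on the plus strand. Of the reads in replicate 2, 644 were on 1 unspliced model that shared no base with that span. Replicate 1 held no Psmc1 model outside the gene. Counted within its own gene, Psmc1 had 273 reads in replicate 1 and 214 reads in replicate 2, a log2 ratio of 0.35 that was not called (adjusted p = 0.0618, binomial test). The count of called subunits fell to 2 of 41, beside 7.05% of all genes tested. One further model, a single read of Psma4 in replicate 2, lay outside its gene.

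Psme3 differed in the other direction, with a log2 ratio of 1.92 (adjusted p = 5.89e-08, binomial test). The difference lay in spliced reads. Spliced models held 67 reads in replicate 1 and 9 reads in replicate 2, and unspliced models held 14 reads in replicate 1 and 12 reads in replicate 2. The unspliced models were not the same in both libraries. An unspliced model at chr11:101321792-101323537 held 0 reads in replicate 1 and 12 in replicate 2. Models of the genomic class, which lack the annotated splicing, held 14 reads in replicate 1 and 0 in replicate 2. Reads on complete known transcripts numbered 56 in replicate 1 and 2 in replicate 2. The transcript reaches a GC content of 78.0% in its richest window of 100 bases, beside a median of 73.0% over the genes tested, and the part of base composition in the difference was not tested.

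Psme4 had a log2 ratio of -1.73 (adjusted p = 0.0326, binomial test) on 27 reads in all. Its annotated transcript has 47 exons, no model held more than 34, and only 1 read was on a known transcript. Testing every gene with at least 1 read moved its adjusted p to 0.0518. Psmb7, with a log2 ratio of 0.61, and Psmb1, with -0.25, had adjusted p-values of 0.0244 and 0.0249 (binomial test) but differed by less than 2-fold.

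Most subunit reads matched the full intron chain of an annotated transcript. The deposited models class a read as known when its whole chain of introns matches 1 annotated transcript, and as an incomplete match when it holds only a part of one. Known transcripts held 7566 of 9415 subunit reads in replicate 1, or 80.4% (interval 79.5% to 81.2%), and 7516 of 10254 in replicate 2, or 73.3% (72.4% to 74.2%). Without the models outside their genes the share in replicate 2 was 78.2% (77.4% to 79.0%). Over all annotated genes the share was 71.9% in replicate 1 and 67.7% in replicate 2. Of the known reads on subunit genes, 98.3% in replicate 1 and 98.2% in replicate 2 were on transcripts of the protein-coding class. New combinations of annotated splice sites took 0.998% of subunit reads in replicate 1 and 1.05% in replicate 2, against 3.38% and 2.92% over all genes.

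The known share was at least 70% in 33 of the 42 detected genes and under 5% in 3, Psmc2, Psmd1 and Psme4. Psmb8, Psmd10 and Psmb5 stood at the other end, with 100%, 98.2% and 96.1% in replicate 1 and 100%, 98.2% and 95.6% in replicate 2. Across the 42 genes the share was lower for longer transcripts, with a Spearman correlation of -0.36, as a description of genes that share the libraries.

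**Figure D4:**
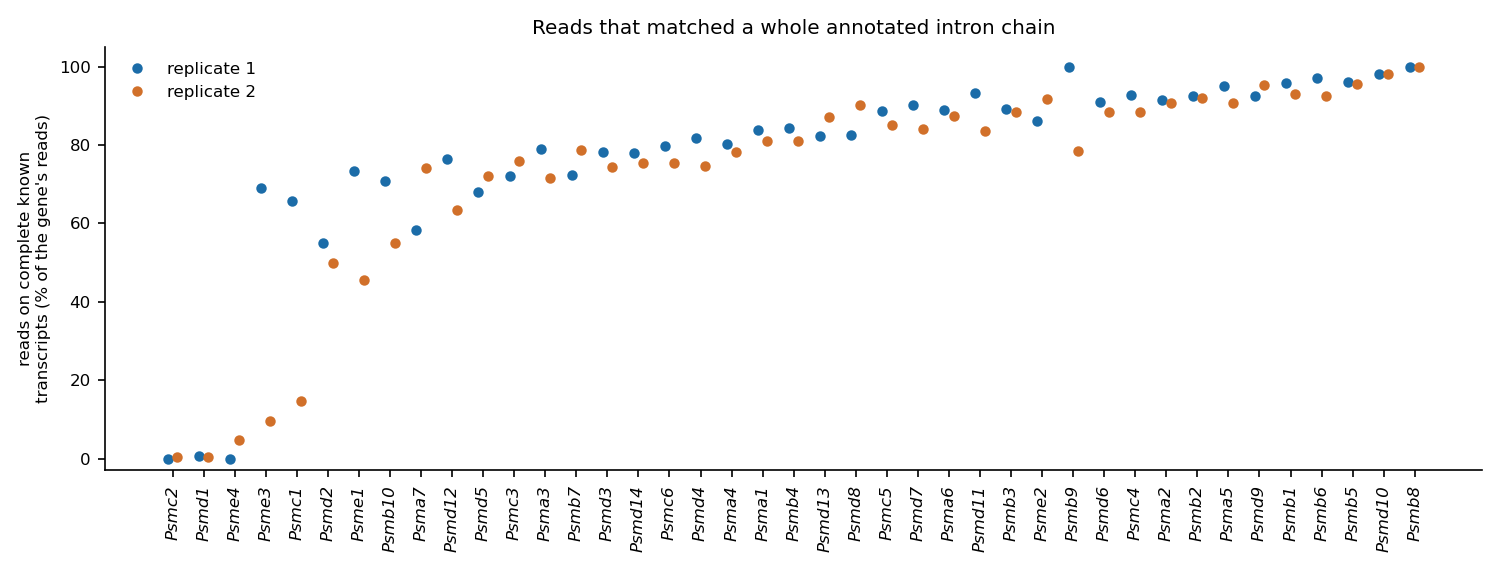
Percent of each gene's reads that matched a complete annotated intron chain in replicate 1 (blue) and replicate 2 (orange), for the 41 subunit genes with at least 10 reads, in order of the mean share. Psmc2, Psmd1 and Psme4 lie under 5% in both libraries, and Psmc1 and Psme3 lie far lower in replicate 2. For Psmc1, 644 of the 858 reads in replicate 2 were on the model outside its gene. Within the gene, 125 of its 214 reads in replicate 2 were on known transcripts.

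Psmc2, an ATPase of the 19S base, had 220 reads in replicate 1 and 248 reads in replicate 2, of which 0 in replicate 1 and 1 in replicate 2 were on a known transcript. A single partial model with 12 of the 13 exons held 192 reads in replicate 1 and 214 reads in replicate 2. It began at position 21786650 of chromosome 5, the start of the second exon of Psmc2-201, and reached the annotated end. RefSeq lists a pair of start sites for the gene, at 21785275 and at 21786747, which are 1472 bases apart, and the second lies 97 bases inside that exon. The deposited ends of partial models cannot place a start to the base, because 555 of 613 partial models of the subunits had both ends on annotated exon edges. The 100 bases before the upstream RefSeq start and the 100 bases before the second exon, from RefSeq on GRCm38.p6, plus strand, are shown with each CG pair in capitals, at chr5:21785175-21785274 and chr5:21786550-21786649.
Psmc2 upstream: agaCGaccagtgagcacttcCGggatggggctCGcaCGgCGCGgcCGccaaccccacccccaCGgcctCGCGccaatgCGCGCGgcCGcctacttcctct
Psmc2 downstream: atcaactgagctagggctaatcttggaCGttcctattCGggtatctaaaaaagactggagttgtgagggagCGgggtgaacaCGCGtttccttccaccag
The upstream window held 14 CG pairs and the window before the second exon held 5.

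Psmd1, which encodes Rpn2, the large scaffold subunit of the 19S base, had 147 reads in replicate 1 and 188 reads in replicate 2, with 1 known read in each. A model with the first 22 of its 25 exons held 72 reads in replicate 1 and 103 reads in replicate 2. That model did not end on an exon edge, and 26 of the next 30 bases were A. Over all positions of the subunits' longest coding transcripts the average was 7.79. A model with 21 exons held 26 reads in replicate 1 and 28 reads in replicate 2. It ended on an exon edge, with 3 A in the next 30 bases of the transcript with introns removed. Intronic bases beside that end were not read. The part of the A-rich stretch in where reads ended was not tested.

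Partial models that kept the 3' part took 10.4% of subunit reads in replicate 1 and 11.0% in replicate 2, and those that kept the 5' part 3.83% in replicate 1 and 3.90% in replicate 2. After Psmc2, the largest was a 4-exon model of Psma7, with 158 reads in replicate 1 and 87 reads in replicate 2. Psmd12 had a 6-exon model from its 5' end with 35 reads in replicate 1 and 62 reads in replicate 2. Models of the genomic class, which lack the annotated splicing, were few, 91 reads in replicate 1 and 110 in replicate 2, and Psma3 alone held 50 of these in replicate 1 and 88 in replicate 2.

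Most subunit genes used 1 annotated transcript. Of the 21 genes that could be tested, with at least 20 known reads in each library and more than 1 known transcript, the leading transcript held at least 80.0% in both libraries in all but Psmd4, Psmd10 and Psmb10. The leading share was called between the libraries in 0 of these genes by Fisher's exact test, beside 1.75% of 2572 genes of any kind, and the count at an unadjusted p under 0.05 was also 0. The lowest unadjusted p was 0.0797, in Psmd6.

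Psmd4-202, without the 9 bases printed above, was the leading transcript of Psmd4. It had 137 of 210 known reads in replicate 1, or 65.2% (interval 58.4% to 71.7%), and 142 of 213 in replicate 2, or 66.7% (59.9% to 73.0%). Psmd4-201, with the 9 bases, took 34.8% in replicate 1 and 32.9% in replicate 2. Counted over every Psmd4 model that crossed the intron, known or not, the exon end with the 9 bases was used in 84 of 237 reads in replicate 1 and 85 of 247 reads in replicate 2, a mean of 34.9% ± 0.728 (SD, n = 2). The share differed between the libraries by less than counting error.

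Psmd10-201 had 38 of 55 known reads in replicate 1, or 69.1% (55.2% to 80.9%), and 34 of 56 in replicate 2, or 60.7% (46.8% to 73.5%). Psmd10-202, without the 79 bases printed above, had 17 reads in replicate 1 and 22 reads in replicate 2. Both are annotated as coding, and 79 is not a multiple of 3.

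Psmb10 had the lowest share of a coding leading transcript among the inducible subunits. Psmb10-201 held 50 of 87 known reads in replicate 1, or 57.5% (46.4% to 68.0%), and 38 of 56 in replicate 2, or 67.9% (54.0% to 79.7%). Nearly all of the rest was on transcripts annotated as retaining an intron. Psmb10-205 had 22 reads in replicate 1 and 14 reads in replicate 2, and Psmb10-207 had 13 reads in replicate 1 and 3 reads in replicate 2. Psmb7 had 94 known reads in replicate 1 and 67 in replicate 2, more than Psmb10-201 in each.

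Psma3 used the exon start without the 5 bases printed above in 39 of 381 reads in replicate 1, or 10.2%, and in 57 of 422 reads in replicate 2, or 13.5%. Psma3-201, the annotated transcript with that exon start, had 34 known reads in replicate 1 and 47 in replicate 2, beside 305 and 313 for Psma3-202. Psmd11-214 held 9.55% of the known reads of Psmd11 in replicate 1 and 10.7% in replicate 2, and the rest were on Psmd11-201.

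**Figure D5:**
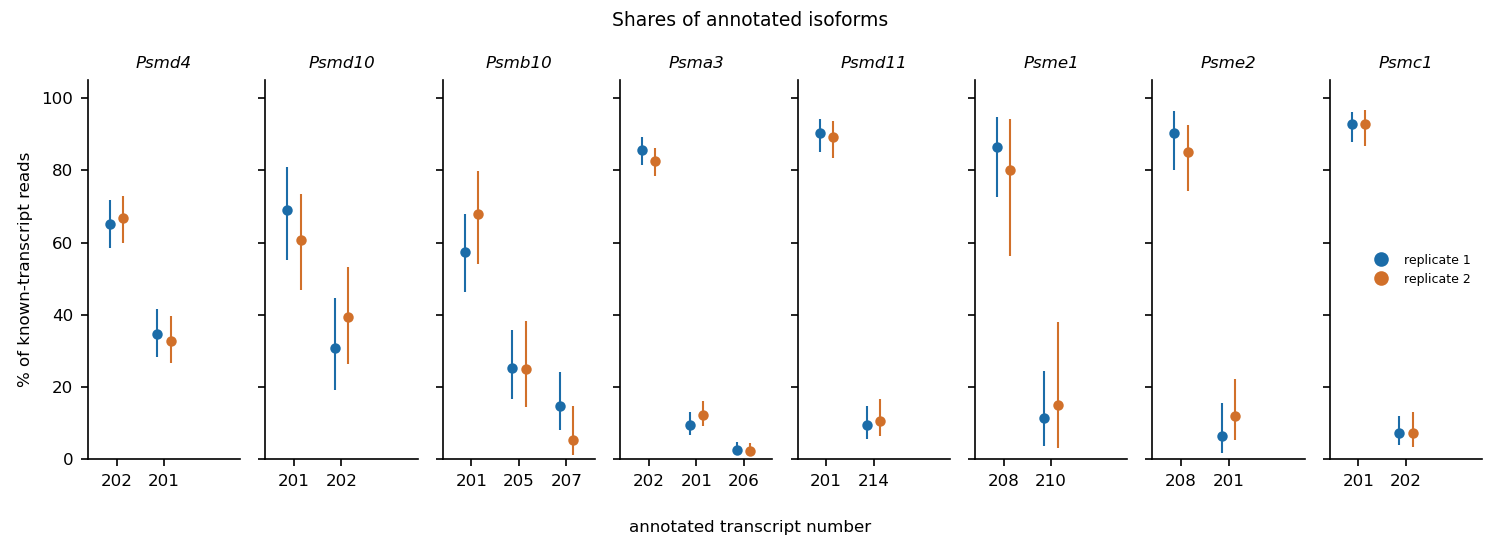
Percent of known-transcript reads on up to 3 leading annotated transcripts with at least 8 reads, for 8 subunit genes, in replicate 1 (blue) and replicate 2 (orange) with 95% Clopper-Pearson intervals. The intervals of the libraries overlap for every transcript drawn, and Psmd4, Psmd10 and Psmb10 are split most evenly.

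Chains of introns outside the annotation were numerous but shallow. The models of the subunits held 382 such chains, of which 70, in 28 genes, occurred in both libraries and 19 had at least 2 reads in each. Together the 382 held 359 reads in replicate 1 and 363 reads in replicate 2. The chain with most reads belonged to Psma7, with 30 reads in replicate 1 and 17 reads in replicate 2. Its first exon ended 290 bases further downstream than the annotated one, outside the coding part, and its intron ran over chr2:180039480-180041987. The new exon end was used in 33 of 355 reads in replicate 1, or 9.30%, and in 20 of 409 reads in replicate 2, or 4.89%.

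The second chain belonged to Psmd8, a subunit of the 19S lid, with 27 reads in replicate 1 and 10 reads in replicate 2. It left out 2 exons of 176 bases in all and began the next exon 34 bases late, at an intron of chr7:29177198-29180276, so that 210 coding bases, a multiple of 3, were missing. The new exon start was used in 28 of 297 reads in replicate 1, or 9.43%, and in 11 of 314 reads in replicate 2, or 3.50%. The remaining chains of the top 5 were smaller. In Psma1 an exon end moved by 2 bases, with 6 reads in replicate 1 and 10 reads in replicate 2, and in Psmc5 by 4 bases, with 5 reads in replicate 1 and 10 reads in replicate 2. In Psmc6 an annotated longer first exon was joined to the full set of later exons, with 7 reads in replicate 1 and 9 reads in replicate 2. Reads that left out a 66-base exon of Psma3 made up 2.01% of those at the exon end before it in replicate 1 and 2.30% in replicate 2. Shifts of a few bases cannot be told apart here from errors of alignment.

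Genes that act with the proteasome were read from lists of assembly factors, bound proteins, regulators and shuttle factors. None of the 5 assembly factors was called between the libraries by the binomial test, and 0 had an unadjusted p under 0.05, which 22.8% of all genes tested had. Their median log2 ratio was -0.09, beside -0.00 over all genes tested. Pomp, which matures the 20S core, led them with 332 reads in replicate 1 and 383 reads in replicate 2, and Psmg2 and Psmg4 had 61 and 46 reads in replicate 1 and 41 and 49 reads in replicate 2. None of the 8 subunits and bound proteins with other symbols was called, 2 had an unadjusted p under 0.05 and the median log2 ratio was 0.06. Sem1, a small subunit of the lid, had 361 reads in replicate 1 and 363 reads in replicate 2. Usp14 and Txnl1, a deubiquitinase and a redox protein of the cap, had 225 and 228 reads in replicate 1 and 272 and 207 reads in replicate 2.

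None of the 5 regulators was called by the binomial test, 0 had an unadjusted p under 0.05 and the median log2 ratio was 0.31. Of all genes tested, 7.05% were called and 22.8% had an unadjusted p under 0.05. Vcp, the unfoldase that feeds the proteasome, had 350 reads in replicate 1 and 362 reads in replicate 2. Nfe2l1, the transcription factor that raises proteasome genes when the protease is inhibited, had 107 reads in replicate 1 and 86 reads in replicate 2, and Ngly1, which processes it, had 41 reads in replicate 1 and 44 reads in replicate 2. Of the 5 shuttle factors tested 1 was called, higher in replicate 1, a direction called in 5.44% of all genes tested. It was Rad23b, which carries ubiquitin-tagged proteins to the cap and had 97 reads in replicate 1 and 32 reads in replicate 2, a log2 ratio of 1.58 (adjusted p = 2.72e-07, binomial test). Ubqln1, another shuttle factor, had 89 reads in replicate 1 and 46 reads in replicate 2. Over the shuttle factors the median log2 ratio was -0.08. None of the 8 interferon and antigen processing genes tested was called by the binomial test, beside 7.05% of all genes tested. Of these 8 genes 2 had an unadjusted p under 0.05, beside 22.8% of all genes tested, and the median log2 ratio was 0.11.

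Promoters of 36 subunit genes were in the RefSeq table for GRCm38.p6, each 250 bases before to 50 bases after a start. The letters CCGGAAG, the core of sites for ETS factors, occurred on either strand in 12 of the 36 (33.3%), among them Psma6, Psmc1, Psmc2 and Psme3, beside 9.93% of 27025 genes in the same table. The core of the antioxidant response element, TGACNNNGC, through which Nfe2l1 is known to act, occurred in 6 of the 36 (16.7%), in Psmb5, Psmb6, Psmc6, Psmd9, Psmd12 and Psme4, beside 14% of all, a share near that of the subunits. CCAAT occurred in 38.9% of the subunit promoters and 41.1% of all, and TATAAA in 11.1% of the subunit promoters and 15.7% of all. The core of the interferon-stimulated response element occurred in 11.1% of the subunit promoters and 3.99% of all. The subunits with it were Psmb3, Psmd4, Psmd9 and Psme1. The gamma-activated site TTCNNNGAA occurred in 5.56% of the subunit promoters, those of Psmb8 and Psmd2, and 9.55% of all. The nuclear respiratory factor site occurred in 2.78% of the subunit promoters and 1.07% of all. The 27025 genes outnumber the 22028 protein-coding genes of GENCODE M21, so other gene types may be among them. A gene with more than 1 start, such as Psmc2, was searched at each. Both strands were searched and no motif contains another. A match is a description of letters in a window and not a bound site.

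Some subunit genes have near copies elsewhere in the genome, and the counting could have split reads between them. Psma3 is 100% identical over 665 bases to the processed pseudogene Gm13835, which had 13 reads in replicate 1 and 11 reads in replicate 2. Psme2 is 99.4% identical over 794 bases to Psme2b, which had 1 read in replicate 1 and 3 reads in replicate 2. Psmd11 is 97.9% identical over 1501 bases to A730017L22Rik, which had 5 reads in replicate 1 and 8 reads in replicate 2. The copies of Psma5 and Psmb5 had at most 6 reads in either library. How many reads of these 5 genes were given to the wrong copy was not measured. Counts on the copies do not bound the reads of a copy that were counted on the subunit gene. Psmb7, Psmb9 and Psmd13 overlap the exons of Nek6, Tap1 and Sirt3 on the opposite strand, and these neighbours had 65, 6 and 172 reads in replicate 1 and 52, 6 and 168 reads in replicate 2.

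The cell types of the cortex were present by their markers. All 5 excitatory neuron, 6 inhibitory neuron, 5 astrocyte, 5 oligodendrocyte, 9 microglia and 5 endothelial markers had reads, and none of Cd79a, Ly6g and Alas2 did. Excitatory markers summed to 1016 CPM in replicate 1 and 803 in replicate 2, and 2 of the 5, Slc17a7 and Nrgn, were called higher in replicate 1, beside 5.44% of all genes tested. Markers of other leukocytes summed to 22.2 CPM in replicate 1 and 2.30 in replicate 2, and red blood cell markers to 29.9 CPM in replicate 1 and 9.20 CPM in replicate 2, with Cd74 and Hbb-bs called. Their part in the differences of Psme3, Psme4 and Rad23b was not tested.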

How the data were processed

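Long-read RNA-seq of 2 libraries of mouse left cerebral cortex was used. The deposited tables hold raw counts of whole reads for each transcript model, and the other values, exon number and model length, are per the file headers. The deposited annotations give GENCODE M21 on mm10 with models added by TALON, per the file headers; the aligner is not given in the sources used here. Reads of a gene's models were added up and divided by library totals to give CPM, the totals being 1306424 in replicate 1 and 1304133 in replicate 2. The limit for a count of 0 was 3 counts.

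There was only 1 group, so p-values set the libraries against counting noise alone. Genes with at least 10 reads were tested with the two-sided exact binomial test, and the leading known transcript by Fisher's exact test, both adjusted by Benjamini and Hochberg's method over all genes (SciPy 1.17.1); log2 ratios had 0.5 counts added. Both tests were checked on simulated counts. edgeR 4.0.16 and DESeq2 1.42.0 supplied only scaling factors for alternatives. CPM per kb used the leading known transcript, or the longest coding one under 10 known reads. A gene's place is its GENCODE M21 span, and a model sharing no base with it lay outside. Near copies were sought with blastn 2.17.0 (97% identity over 200 bases).

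The members and lists were chosen with earlier results of these data known. Genes named were the 3 highest and the lowest of each role, all catalytic and activator genes, called genes, split isoforms, the 5 top new chains and the top 3 of each other list, where reported; others named were chosen after their values were seen. Paaf1 and Shfm1 of the lists had no entry of that name among annotated genes. Proteins were not used, and some results are not reported here.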

Additional observations from a re-analysis of the deposited data

Results flagged for a closer look

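Models on the strand opposite to a subunit gene were used in no comparison and held 18 reads in replicate 1 and 34 reads in replicate 2 over all 43 genes, above the limit of 3 counts that a count of 0 allows. All of these reads were unspliced. Psmd7 had 8 antisense reads in replicate 1 and 11 in replicate 2, and Psmd11 had 0 in replicate 1 and 12 in replicate 2.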

How the results depend on the processing

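No paired analysis was possible because the study compared no groups. Of the summary values recomputed, 25 counted as kept and 7 moved. Levels and shares were kept if they stayed within the spread between replicates. Counts of called genes and of new chains were kept if within 1.5-fold of the main count, whichever genes were in them. The count of differing isoform shares was kept if unchanged. For the summed level, the inducible share and the known share, leaving out 1 replicate could only count as kept. Either library of 2 lies closer to their mean than 1 SD. Counting known-transcript reads only, against the total of such reads, moved the summed level to 8811 CPM, the median level to 186 CPM and the inducible share to 9.41%. Division by length, a change of unit that was counted as moved whatever its value, gave a median of 98.9 CPM per kb. With no limit on the ratio 5 of 41 subunit genes were called, beside 12.8% of all genes tested. With at least 2 reads in each library 19 new chains were left. Leaving out 1 replicate at a time gave a summed level of 7207 to 7863 CPM, a median of 168 to 176 CPM, an inducible share of 11.1% to 13.1% and a known share of 73.3% to 80.4%. The median of 168 CPM, without replicate 2, counted as moved.

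The log2 ratio of Psmc1 turned to 0.40 with known-transcript reads only and to 0.35 without models outside their gene, a setting chosen after seeing the data. With known-transcript reads only, 2 of 38 subunits tested were called, beside 11.1% of 7765 genes tested. They were Psme3 and Psme1, both higher in replicate 1, against Psmc1, Psme3 and Psme4 in the main comparison. The cause was not tested. Psme4 was no longer called when genes with at least 1 read were tested (log2 ratio -1.73, adjusted p = 0.0518, binomial test), since more genes were tested. At 2 libraries no spread within a group can be set against these differences, and genes under about 30 reads, such as Psmb8, Psmb9 and Psme4, are limited by counting error.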
